A study of Mus musculus with 4 samples.

Results

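The genes described are 9 of the 55453 in the count matrices: the syndecans Sdc1 and Sdc4, the integrin subunits Itgb1, Itgb5, Itga5, Itga6 and Itgav, the integrin activator talin (Tln1) and the secreted ligand osteopontin (Spp1). They were taken by symbol from all 4 plates of mouse embryo wells. The set was chosen by its levels and morpholino differences in these same counts, in all of the comparisons below. Its values are therefore a description, and no count of members that pass a test is independent evidence.

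Integrins are receptors of an alpha and a beta subunit that bind matrix proteins outside the cell and are switched on from inside when talin binds the beta tail. Syndecans are transmembrane proteoglycans whose heparan sulfate chains bind growth factors and matrix, and they act beside integrins as co-receptors at adhesion sites. In the mouse blastocyst, integrins on the outer trophectoderm take part in attachment to the uterus, and osteopontin is a ligand of integrins that contain the alpha V subunit.

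Embryos carried a morpholino, an antisense oligonucleotide, against NKX1-2 in 48 wells of each plate or a control morpholino in the other 48, and transcripts were counted in each well. The library source is labelled single cell. NKX1-2 is a homeobox transcription factor that the study's title links to Wnt signalling and early development. There were 2 plates of blastocyst wells, the stage with an outer trophectoderm and an inner cell mass, and 2 plates of morula wells, the compact ball of cells before it. The labels give no strain, no allele and no embryo for any well, so the plate is the replicate (n = 2 per stage) and p-values measure the spread between plates, which may be technical.

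Of 384 wells, 368 had at least 2000 detected genes and were kept, and their counts were summed per plate and morpholino into 8 sums of 1066591 to 2398605 counts. A level is given in CPM, the counts of a gene scaled to a fixed total per sum, which is not per gene length and is compared only within a gene. All 96 well barcodes occur on every plate, and they name positions in a plate. Nkx1-2 had 0 counts in every well, so these counts do not check the morpholino labels. Xist was counted and Y-linked genes were not in 35 of 47 and 20 of 44 NKX1-2 wells of the blastocyst plates, against 15 of 43 and 6 of 43 control wells. In the morula plates this held for 10 of 48 and 23 of 47 NKX1-2 wells, against 25 of 48 and 27 of 48 control wells. Both Xist and a Y-linked gene were counted in 7 and 22 NKX1-2 wells and 8 and 19 control wells of the blastocyst plates. The same held for 7 and 6 NKX1-2 wells and 7 and 4 control wells of the morula plates. The wells outside the class thus include wells with Xist, and no sex was assigned to a well. The trophectoderm list of 24 markers summed to 1164 to 1286 CPM in blastocyst sums and 1184 to 1467 CPM in morula sums, and its markers went both ways. Krt18, a keratin of the trophectoderm, had 118 to 162 CPM in blastocyst sums against 15.01 to 27.8 CPM in morula sums. Tead4 had 67.0 to 77.8 CPM in blastocyst sums against 334 to 378 CPM in morula sums. Each stage has its own plates, so stage and plate cannot be told apart, and in a bulk sum fewer cells of a type and less RNA per cell cannot be told apart either.

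The start regions of the genes on which the results turn are shown here, 250 bases up to the start annotated by RefSeq on GRCm38.p6, read 5′ to 3′ on the strand of the gene. Sdc4 (chr2:164443189-164443438, minus strand) and Sdc1 (chr12:8771146-8771395, plus strand) are the pair of syndecans. Itgb1 (chr8:128685404-128685653, plus strand) is the shared beta subunit. Spp1 is shown at both annotated starts (chr5:104434861-104435110 and chr5:104435942-104436191, plus strand), because it was near absent in the morula. Capitals mark a match on either strand to a motif. The letters searched were GGAATG for TEAD factors, TGANTCA for AP-1, GCCNNNGGC for AP-2, AGATAA for zinc finger factors of the GATA family and TAATTA for homeodomain factors. No letters of these motifs overlap in the windows shown.
Sdc4: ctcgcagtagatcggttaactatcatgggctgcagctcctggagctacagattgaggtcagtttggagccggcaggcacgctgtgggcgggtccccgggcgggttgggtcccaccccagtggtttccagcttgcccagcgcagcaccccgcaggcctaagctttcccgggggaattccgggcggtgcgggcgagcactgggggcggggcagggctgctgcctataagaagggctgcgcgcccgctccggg
Sdc1: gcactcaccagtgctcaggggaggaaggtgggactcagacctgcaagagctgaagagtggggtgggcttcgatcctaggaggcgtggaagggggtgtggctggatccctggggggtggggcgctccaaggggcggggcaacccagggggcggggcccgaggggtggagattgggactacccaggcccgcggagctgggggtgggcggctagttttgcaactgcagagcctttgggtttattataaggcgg
Itgb1: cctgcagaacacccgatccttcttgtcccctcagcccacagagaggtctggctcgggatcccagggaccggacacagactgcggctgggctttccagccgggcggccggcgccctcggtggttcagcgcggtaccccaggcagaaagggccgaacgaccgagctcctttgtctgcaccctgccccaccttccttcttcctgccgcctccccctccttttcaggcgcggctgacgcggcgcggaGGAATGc
Spp1, upstream start: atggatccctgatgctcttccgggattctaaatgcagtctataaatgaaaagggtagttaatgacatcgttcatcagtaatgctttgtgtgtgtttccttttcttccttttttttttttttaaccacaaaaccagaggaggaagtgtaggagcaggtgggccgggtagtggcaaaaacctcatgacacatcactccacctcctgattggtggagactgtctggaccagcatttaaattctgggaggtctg
Spp1, downstream start: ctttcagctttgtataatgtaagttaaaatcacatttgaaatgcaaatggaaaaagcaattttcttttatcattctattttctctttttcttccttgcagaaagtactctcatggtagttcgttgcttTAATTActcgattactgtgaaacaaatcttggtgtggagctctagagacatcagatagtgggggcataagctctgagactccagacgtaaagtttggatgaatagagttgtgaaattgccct

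Sequences matched 8 of the 9 genes. Itgb1 held a TEAD match 7 bases before its start, and the downstream Spp1 start held a homeodomain match 122 bases before it. The windows of Sdc1, Sdc4, Itgb5, Itga5, Itgav, Tln1 and the upstream Spp1 start held no letters of any of the motifs. Among 32817 RefSeq windows of the same length, 12.6% held the TEAD letters, 6.75% those of AP-1, 13.7% those of AP-2, 9.99% those of GATA and 4.85% those of the homeodomain motif. A match is a string of letters in the window and not a shown site.

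The first comparison set the blastocyst against the morula. Among the members, Sdc4, Itgb1, Itga6, Tln1 and Spp1 rose in the blastocyst and Itgb5 and Sdc1 fell, in NKX1-2 and in control wells alike. Itgav fell in NKX1-2 wells and did not pass in control wells. In NKX1-2 wells 8 of 8 tested members passed an adjusted p of 0.05 (quasi-likelihood test of edgeR, Benjamini-Hochberg), and so did 45.9% of all 10221 genes tested. Of the members 5 were higher and 3 lower, beside 21.9% and 24.0% of all genes. In control wells 7 of 8 members passed, and 41.7% of 9577 genes. Of the members 5 were higher and 2 lower, beside 20.1% and 21.6% of all genes. Spp1, with at most 1 count in a morula sum, met the filter on low counts through the blastocyst alone, so that it had to differ. Without it 7 of 7 members passed in NKX1-2 wells and 6 of 7 in control wells. Itga5 was removed as a low count gene and was not tested. Fold changes between the stages are relative to a TMM scaling: on library totals alone the median gene lay at -0.28 on the log2 scale in NKX1-2 wells and at -0.29 in control wells. The share of passing genes that were higher in the blastocyst was 47.8% in NKX1-2 wells with TMM and 31.9% with library totals, and 48.1% and 30.4% in control wells. All member directions were the same under both scalings.

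Sdc4 (ENSMUSG00000017009), the syndecan that joins focal adhesions, is encoded on chromosome 2 (164424247 to 164443887, minus strand, GRCm38). It had 419 and 300.02 CPM in NKX1-2 wells and 278 and 294 CPM in control wells of the blastocyst plates, against 73.8 and 47.5 CPM in NKX1-2 wells and 14.4 and 23.5 CPM in control wells of the morula plates. Every blastocyst sum lay above every morula sum. The log2 fold change was 2.82 (SE 0.21, adjusted p = 6.01e-09) in NKX1-2 wells and 4.19 (SE 0.25, adjusted p = 2.39e-12) in control wells. It had a count in 174 of 177 blastocyst wells (98.3%) against 87 of 191 morula wells (45.5%). With each well thinned to 10000 counts the shares were 87.4% and 23.2%, and 3 shallower wells were left out.

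Sdc1 (ENSMUSG00000020592), the syndecan of epithelia, lies on chromosome 12 at 8771323 to 8793715. It had 8.65 and 3.62 CPM in NKX1-2 wells and 16.9 and 7.65 CPM in control wells of the blastocyst, against 24.0 and 27.1 CPM in NKX1-2 wells and 30.6 and 30.3 CPM in control wells of the morula. The stages did not overlap, and the direction was opposite to that of Sdc4. Sdc1 fell by 1.84 (SE 0.41, adjusted p = 0.00142) on the log2 scale in NKX1-2 wells and by 1.08 (SE 0.39, adjusted p = 0.0291) in control wells. The call in control wells held in 8 of 14 alternatives and was lost, for example, without morula replicate 1 (-1.12), without morula replicate 2 (-1.09) and without blastocyst replicate 2 (-0.53). The call in NKX1-2 wells was lost without blastocyst replicate 2 (-1.32). Wells with a Sdc1 count made up 20.9% of blastocyst against 62.8% of morula wells, and 7.43% against 25.8% after thinning.

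**Figure D1:**
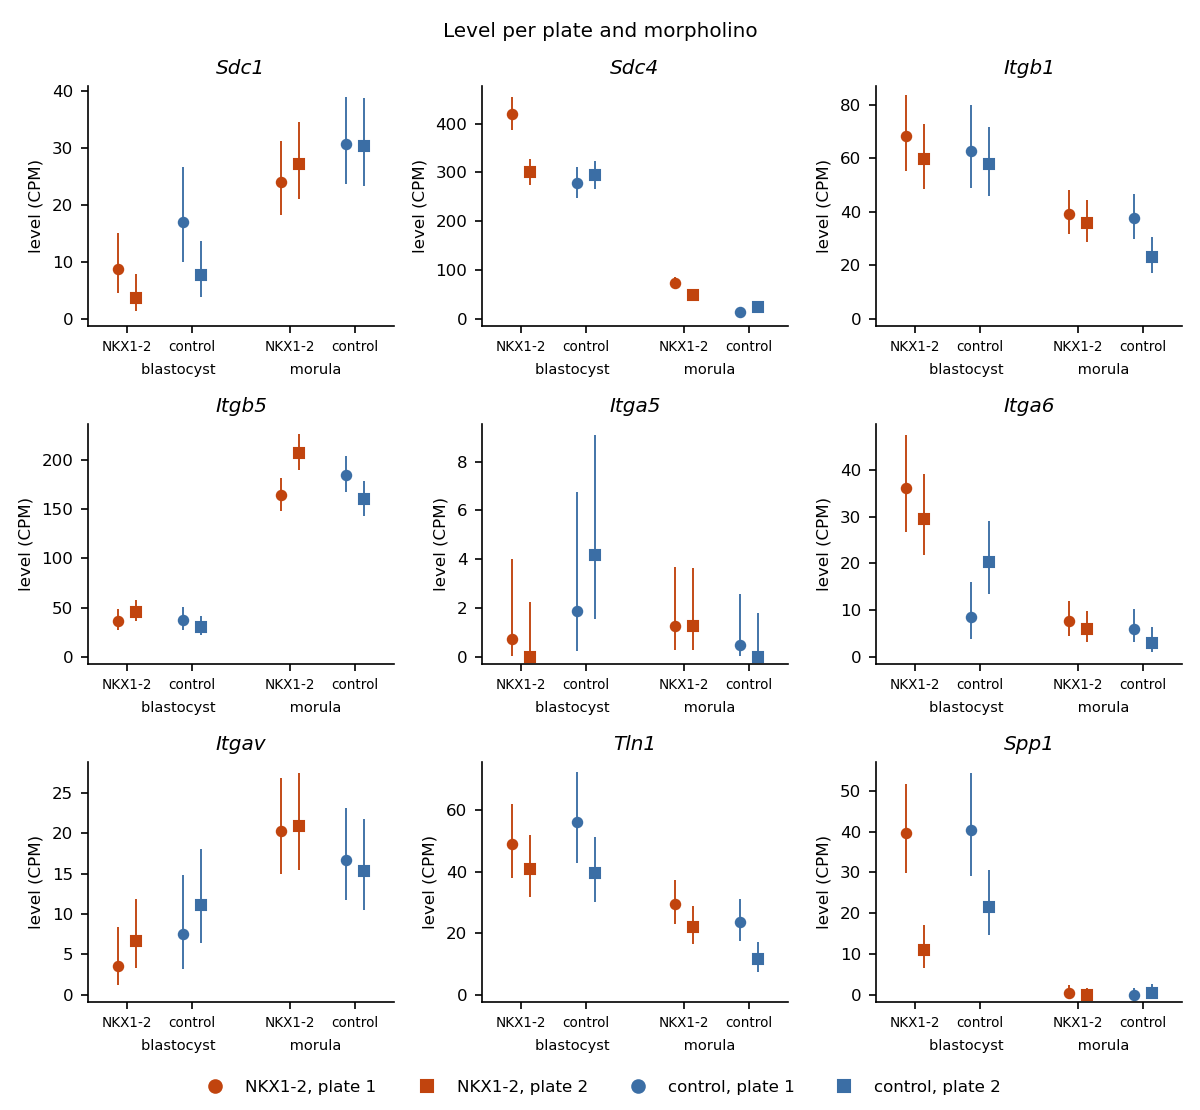
Level in CPM (y axis, from 0) of each of the 9 genes in the 8 sums, with 95% exact Poisson bars for counting error only. Sdc4 lies at 278 to 419 CPM in the blastocyst and at 14.4 to 73.8 CPM in the morula, while Itgb5 lies at 30.6 to 45.9 CPM in the blastocyst and at 160.4 to 208 CPM in the morula.

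Of the 2 beta subunits among the members, Itgb5 (ENSMUSG00000022817, chromosome 16), which pairs with alpha V, fell. Itgb5 had 36.7 and 45.9 CPM in NKX1-2 wells and 37.5 and 30.6 CPM in control wells of the blastocyst, against 165 and 208 CPM in NKX1-2 wells and 185 and 160.4 CPM in control wells of the morula. It was counted in 100% of the 191 morula wells. Its log2 fold change was -1.91 (SE 0.21, adjusted p = 8.03e-07) in NKX1-2 wells and -2.07 (SE 0.24, adjusted p = 3.17e-07) in control wells, and all 14 alternatives kept the call in both. Of its 31-base stretches, 7.86% occur in another gene's transcripts, so a part of its reads could be shared.

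Itgb1 (ENSMUSG00000025809, chromosome 8), the beta subunit that pairs with most alpha subunits, went the other way. It had 68.4 and 59.8 CPM in NKX1-2 wells and 62.8 and 57.7 CPM in control wells of the blastocyst, against 39.2 and 35.9 CPM in NKX1-2 wells and 37.5 and 23.1 CPM in control wells of the morula. The stages did not overlap, by a narrower gap than for Sdc4 or Itgb5. The log2 fold change was 1.02 (SE 0.23, adjusted p = 0.00128) in NKX1-2 wells and 1.27 (SE 0.28, adjusted p = 0.000936) in control wells, where the call was lost without morula replicate 2 (0.95).

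Of the alpha subunits, Itga6 (ENSMUSG00000027111, chromosome 2), a laminin receptor subunit, rose and Itgav (ENSMUSG00000027087, chromosome 2), the partner of the beta 5 subunit, did not. Itga6 had 36.0 and 29.6 CPM in NKX1-2 wells and 8.44 and 20.2 CPM in control wells of the blastocyst, against 7.59 and 5.84 CPM in NKX1-2 wells and 6.03 and 2.88 CPM in control wells of the morula. Its log2 fold change was 2.53 (SE 0.35, adjusted p = 1.22e-05) in NKX1-2 wells and 1.98 (SE 0.51, adjusted p = 0.00343) in control wells. The control call was lost without morula replicate 2 (1.54) and without blastocyst replicate 2 (1.22).

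Itgav had 3.60 and 6.64 CPM in NKX1-2 wells and 7.50 and 11.1 CPM in control wells of the blastocyst, against 20.2 and 20.8 CPM in NKX1-2 wells and 16.7 and 15.4 CPM in control wells of the morula. It fell by 1.71 (SE 0.42, adjusted p = 0.00298) on the log2 scale in NKX1-2 wells, a call lost without blastocyst replicate 1 (-1.34), whereas its value in control wells was -0.48 (SE 0.42, adjusted p = 0.379). Itga5 (ENSMUSG00000000555, chromosome 15), the alpha subunit of the fibronectin receptor, had 1 count in NKX1-2 wells and 8 counts in control wells of the blastocyst, against 6 counts in NKX1-2 wells and 1 count in control wells of the morula. Of the 8 counts, 6 came from 5 wells of replicate 2. The order of the stages thus differed between NKX1-2 and control wells, on too few counts for a test.

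Tln1 (ENSMUSG00000028465, chromosome 4) had 49.0 and 41.0 CPM in NKX1-2 wells and 56.3 and 39.7 CPM in control wells of the blastocyst, against 29.5 and 22.1 CPM in NKX1-2 wells and 23.6 and 11.5 CPM in control wells of the morula. The 2 stages did not overlap. The log2 fold change was 1.05 (SE 0.27, adjusted p = 0.00343) in NKX1-2 wells and 1.71 (SE 0.34, adjusted p = 0.000343) in control wells, and the NKX1-2 call was lost without blastocyst replicate 1 (0.95). Of the exonic bases of Tln1, 3.67% overlap Creb3 on the opposite strand, and whether counting used the strand is not given in the sources used here.

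Spp1 (ENSMUSG00000029304), on chromosome 5 at 104435118 to 104441050, was the member nearest to absence in the morula. It had 147 counts in 45 of 177 blastocyst wells against 2 counts in 191 morula wells, a ratio of 119 per total counts. Its exact 95% interval, for counting error only, was 32.5 to 995. Per sum it had 39.6 and 10.9 CPM in NKX1-2 wells and 40.3 and 21.6 CPM in control wells of the blastocyst, against 0.421 and 0 CPM in NKX1-2 wells and 0 and 0.480 CPM in control wells of the morula. The blastocyst counts were uneven between wells. The highest well held 8 of 55 and 8 of 18 counts in NKX1-2 wells, and 23 of 43 and 18 of 31 counts in control wells. Of its exonic bases 18.8% overlap the gene model Gm42793 on the same strand, and 14.3% of its 31-base stretches occur in another gene. Some genes had counts at 1 stage only: 11 of 4951 genes with at least 20 CPM in the blastocyst had 0 counts in the morula. The reverse held for 21 of 5514 genes with at least 20 CPM in the morula. Spp1, with 2 morula counts, is not among the 11. A run of 344 neighbouring genes, left out of all fits, also had no morula counts and took 1.68% and 1.67% of the blastocyst counts. Whether counting differed between the stages was not tested, and such a difference would bear on every stage comparison given here.

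**Figure D2:**
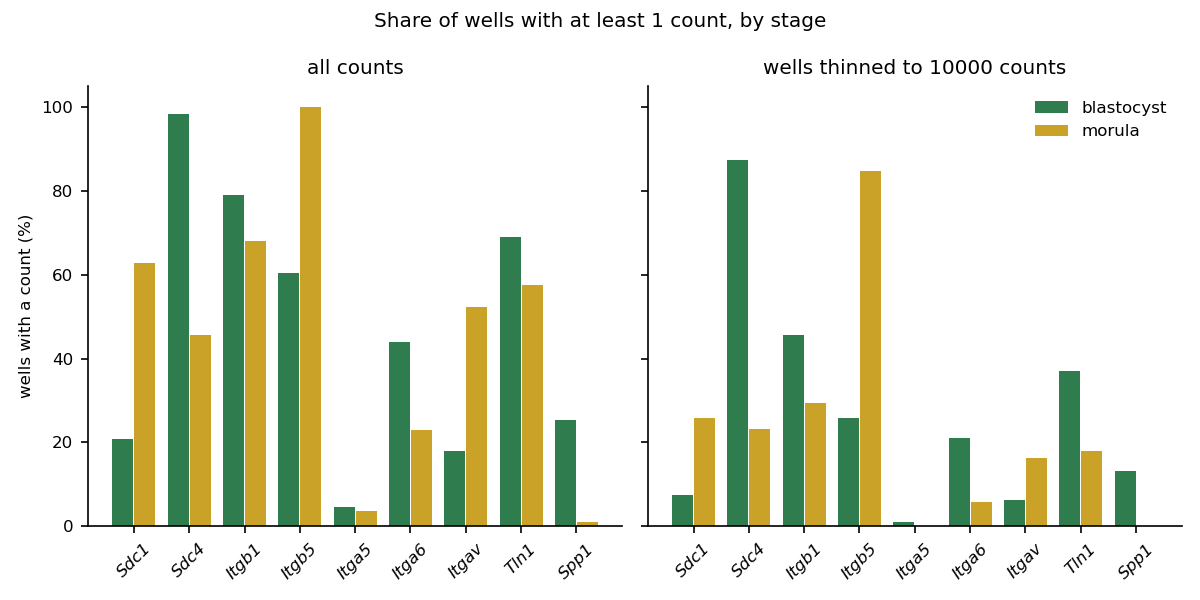
Percent of kept wells (y axis) with at least 1 count of each gene in the blastocyst and the morula, with all counts on the left and with each well thinned to 10000 counts on the right. Sdc4 was counted in 98.3% of blastocyst against 45.5% of morula wells (87.4% against 23.2% when thinned), and Itgb5 in 60.5% against 100% (25.7% against 84.7%).

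The second comparison asked which members differed between NKX1-2 and control wells. In the morula 1 of 8 tested members passed, Sdc4, and 0.552% of all 10873 genes did. Sdc4 averaged 60.6 ± 18.5 CPM in NKX1-2 wells and 19.0 ± 6.48 CPM in control wells (SD, n = 2 plates each). The groups did not overlap, and NKX1-2 was higher in both plates, by 2.27 and 0.95 on the log2 CPM scale with a prior count of 2. The fitted log2 fold change was 1.65 (SE 0.29, adjusted p = 0.0278, edgeR quasi-likelihood test). Over 14 alternatives it ranged from 0.47 to 2.38 and passed in 12. It was lost without morula replicate 1 (0.99) and in the Xist wells without Y-linked counts (0.47). In those wells Sdc4 had 8.50 CPM in NKX1-2 wells against 13.4 CPM in control wells of replicate 1, and 23.9 against 11.9 CPM in replicate 2. These rest on few counts: 4 in 10 NKX1-2 and 15 in 25 control wells of replicate 1, and 29 and 14 in replicate 2. In the remaining wells it had 89.9 CPM in NKX1-2 wells against 15.4 CPM in control wells of replicate 1, and 71.7 against 38.6 CPM in replicate 2.

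Sdc4 was counted in more of the NKX1-2 than of the control wells of the morula, and a few wells held a large share of the counts in both. A count was seen in 28 of 48 and 25 of 47 NKX1-2 wells, against 16 of 48 and 18 of 48 control wells. The 3 highest wells held 89 of 175 and 47 of 114 counts in NKX1-2 wells, against 13 of 31 and 19 of 49 counts in control wells. Without the 1 highest well, an NKX1-2 well of replicate 1 with 47 counts, the log2 fold change was 1.41 and passed.

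Wells were also clustered within each stage with the members and the other adhesion genes left out. None of the 5 morula clusters could be named from markers. Cluster 4 held 34 of 191 wells, 23 NKX1-2 wells and 1 control well of replicate 1 and 10 NKX1-2 wells and 0 control wells of replicate 2. Its leading genes were Cd24a, Rbmxl2, the Y-linked Eif2s3y, Rab26os and, among the p53 targets, Ccng1 and Pmaip1. Cluster 4 had 145 and 155 CPM of Sdc4 in the 2 plates, against 10.1 to 32.7 CPM in the other clusters. Within the NKX1-2 wells, Sdc4 had 147 and 155 CPM in cluster 4 and 14.5 and 24.7 CPM outside it, and control wells outside it had 13.2 and 23.5 CPM. Outside cluster 4, the NKX1-2 and control wells of a plate thus had similar levels, but a larger share of NKX1-2 wells had a count. A count was seen in 13 of 25 and 18 of 37 of these NKX1-2 wells, against 15 of 47 and 18 of 48 control wells. These shares were not thinned to equal depth. Over all kept morula wells the median depth was 47763.5 and 48648 counts in NKX1-2 wells, against 44201 and 41251 in control wells. The clusters themselves went with the morpholino: cluster 1 held 26 and 24 control wells and 0 NKX1-2 wells of the 2 plates. Cluster 4 held 89.1% and 57.0% of the Sdc4 counts of the NKX1-2 wells.

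None of its wells, 0 of 24 and 0 of 10, had Xist without Y-linked counts, against 35 of 72 and 50 of 85 of the other wells. The trophectoderm list summed to 1288 and 1279 CPM in cluster 4 against 1312 and 1342 CPM in the other wells. At a resolution of 0.5 a cluster of 34 wells with the same 10 leading genes was found. At 1.5 Cd24a and Eif2s3y were among the leading genes of a cluster of 21 wells. Rbmxl2, Ccng1 and Pmaip1 were among those of a cluster of 6 wells, and Rab26os led neither. Where the 34 wells went at 1.5 was not traced. Cluster 4 held 1 control well, so NKX1-2 and control wells could not be compared within it. Itgb1 (52.0 and 57.4 CPM against 10.96 to 41.3 CPM in the other clusters) and Tln1 (40.1 and 50.2 CPM against 10.9 to 27.9 CPM) were also at their highest there in both plates. In replicate 2 it also had 38.2 CPM of Itgav and 64.5 CPM of Sdc1, against at most 21.8 and 31.2 CPM in the other clusters.

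**Figure D3:**
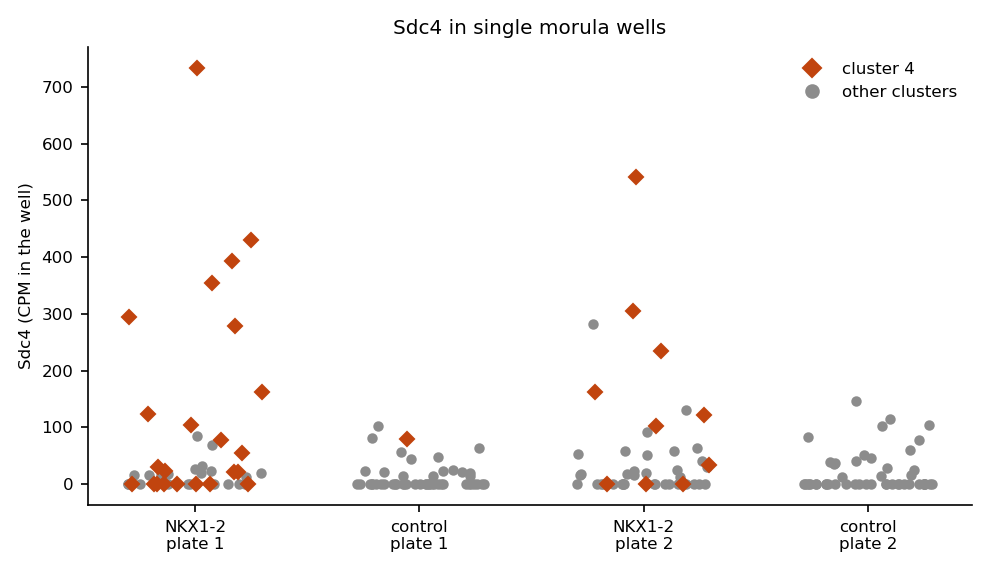
Sdc4 level in CPM (y axis) of every kept morula well by morpholino and plate, with wells of cluster 4 as diamonds and wells of other clusters as circles. The highest cluster 4 wells had 734 and 541 CPM among NKX1-2 wells of replicates 1 and 2, and the highest control wells had 102 and 147 CPM. Outside cluster 4 the highest NKX1-2 wells had 85.6 and 282 CPM.

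Of the other members in the morula, Tln1 had 29.5 and 22.1 CPM in NKX1-2 wells against 23.6 and 11.5 CPM in control wells. The difference was 0.56 on the log2 scale (SE 0.26) and did not pass (adjusted p = 0.445). Sdc1 (-0.27), Itgb1 (0.31), Itgb5 (0.09), Itga6 (0.58), Itgav (0.34) and Spp1 (-0.14, on 2 counts) did not pass either. Tln1, Itgb1, Itga6 and Itgav had higher and Sdc1 lower values in the NKX1-2 wells of both plates. With cluster 4 set aside, Itgb1 had 27.4 and 31.3 CPM in NKX1-2 wells against 38.2 and 23.1 CPM in control wells, so its direction turned in replicate 1. Tln1 then had 22.1 and 16.2 CPM in NKX1-2 wells against 22.6 and 11.5 CPM in control wells.

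In the blastocyst 0 of 8 tested members passed with edgeR and 0 with DESeq2, and 0.727% of all genes passed with edgeR. An unadjusted p under 0.05 was reached by 2 members, Itga6 and Sdc1. Itga6 averaged 32.8 ± 4.56 CPM in NKX1-2 wells and 14.3 ± 8.30 CPM in control wells (SD, n = 2 plates each), and the groups did not overlap. Its log2 fold change was 1.14 (SE 0.37, adjusted p = 0.172) and it rested on the plate: it was 2.02 and passed without blastocyst replicate 2, and was 0.57 and did not pass without blastocyst replicate 1. Sdc1 averaged 6.13 ± 3.55 CPM in NKX1-2 wells and 12.3 ± 6.52 CPM in control wells. Here the plates overlapped, although NKX1-2 was lower within each (-0.95 and -0.90). The fitted log2 fold change was -1.04 (SE 0.43, adjusted p = 0.302). Sdc4 averaged 360 ± 84.4 CPM in NKX1-2 wells and 286 ± 11.4 CPM in control wells, or 0.28 on the log2 scale (SE 0.21, adjusted p = 0.599), which was 0.53 and passed without blastocyst replicate 2, and was 0.048 without blastocyst replicate 1. Itgav (-0.87), Spp1 (-0.45), Itgb5 (0.28), Tln1 (-0.10) and Itgb1 (0.06) did not pass. The Spp1 value turned to 0.094 without its 1 highest well, a control well of replicate 1 with 23 counts.

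Itga6 and Sdc1 stood apart in the same blastocyst cluster. Cluster 4 of the blastocyst held 30 control wells, 15 of each plate, and 0 NKX1-2 wells, with Zfas1, Smim24, Nkx2-9 and the p53 target Phlda3 among its leading genes. Itga6 had 3.49 and 2.00 CPM in it, 1 count in each plate, against 16.5 to 56.4 CPM in the other clusters. Sdc1 had 27.9 and 19.998 CPM in it, on 8 and 10 counts, against 0 to 18.6 CPM in the other clusters. With cluster 4 set aside, Itga6 had 36.0 and 29.6 CPM in NKX1-2 wells against 10.3 and 29.9 CPM in control wells, and Sdc1 had 8.65 and 3.62 CPM against 12.8 and 1.07 CPM. In replicate 2 the NKX1-2 wells were then level with control wells for Itga6. For Sdc1 they were above control wells, but on 6 counts against 1 count, too few to show a turn. The wells of this cluster had a median of 18924 counts in replicate 1 and 30860 in replicate 2, against 26109.5 and 32073.5 in the other control wells. In it 1 of 15 in each plate showed Xist without Y-linked counts. The trophectoderm list summed to 443 and 1014 CPM in it, against 1337 and 1258 CPM in the other wells. The part of depth and of the cluster's makeup in these values was not tested.

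A single blastocyst cluster could be named, cluster 2, TE-like from Ptges, Tfap2a, Krt18, Fabp3 and Krt8 among its 10 leading genes, with 32 wells. TE-like wells had 479 and 237 CPM of Sdc4 and 70.1 and 62.9 CPM of Itgb1, within the range of the other clusters (102 to 522 CPM of Sdc4 and 43.9 to 84.1 CPM of Itgb1). Spp1 was low in them, with 2.06 and 6.51 CPM. Cluster 3, led by Glrx, Mgarp, Hmgn5, Bin1, Ezr and Etv5, had 90.8 and 60.0 CPM of Spp1, counted in 7 of 12 and 10 of 19 wells, and no count of Sdc1 in either plate. Clusters 1 and 7 had 95.01 and 68.2 CPM of Spp1 in replicate 1 and 4.11 and 0 CPM in replicate 2. In replicate 2 the 2 highest wells held 26 of the 40 Spp1 counts of cluster 3, and in replicate 1 they held 16 of 29.

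**Figure D4:**
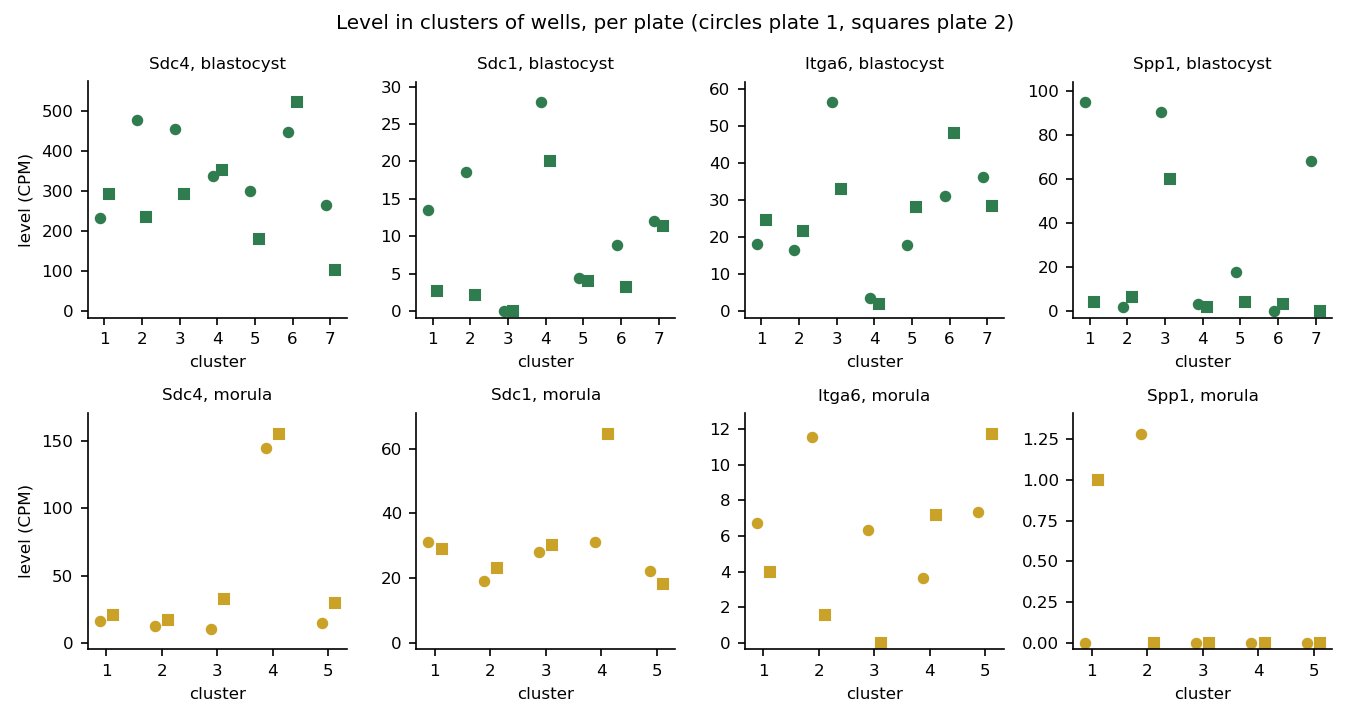
Level in CPM (y axis) of Sdc4, Sdc1, Itga6 and Spp1 in the clusters of wells (x axis) of the blastocyst (top row, green) and the morula (bottom row, yellow), 1 point per plate. Morula cluster 4 stands out in Sdc4 (145 and 155 CPM), and blastocyst cluster 4 is low in Itga6 (3.49 and 2.00 CPM) and high in Sdc1 (27.9 and 19.998 CPM).

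Averaged over the stages, Sdc4 rose by 0.96 on the log2 scale in NKX1-2 wells (SE 0.18, adjusted p = 0.0179), as 1 of 8 members and 2.9% of all genes, and was lost without morula replicate 1 (0.64) and in the same Xist wells (0.47). The average for Itga6 was 0.86 (SE 0.31, adjusted p = 0.154). It was 1.30 and passed without blastocyst replicate 2, and was 0.57 without blastocyst replicate 1. The morpholino effect of the blastocyst minus that of the morula was -1.36 for Sdc4 (SE 0.36, adjusted p = 0.485). In this comparison 0 of 8 members passed with edgeR, 2 were under an unadjusted p of 0.05, DESeq2 called 0, and 0.0184% of all genes passed. The passing Sdc4 effect in the morula was therefore not shown to differ from that of the blastocyst, and leaving out morula replicate 2 (-2.09), blastocyst replicate 1 (-1.61) or blastocyst replicate 2 (-1.12) brought it past the threshold, while without morula replicate 1 it was -0.70 and did not pass. Itgav was the other member under 0.05, with a difference of -1.21 (SE 0.55, adjusted p = 0.767).

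**Figure D5:**
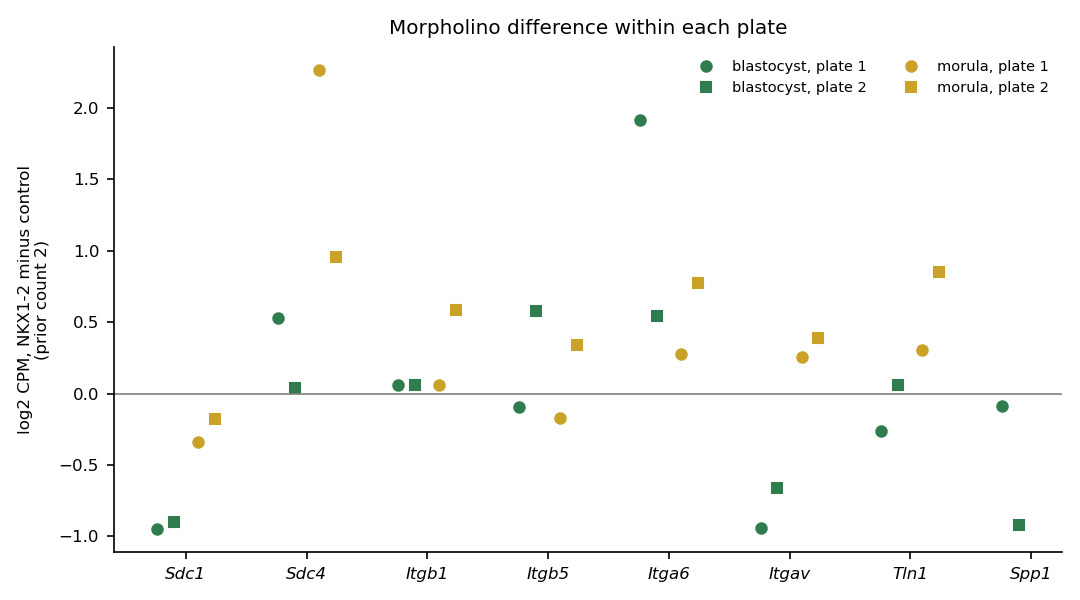
Difference in log2 CPM between NKX1-2 and control wells (y axis, prior count 2) within each plate, for the members with enough counts. Sdc4 lies at 0.53 and 0.04 in the blastocyst and at 2.27 and 0.95 in the morula, Itga6 is above 0 and Sdc1 below 0 in all 4 plates, and Itgav is below 0 in the blastocyst and above 0 in the morula.

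The rest of the adhesion pathway was described with 5 lists, and none of their tested genes passed for the morpholino in either stage with edgeR or with DESeq2. At an adjusted p of 0.05 (edgeR) the counts were 0 of 25 integrin activators and focal adhesion proteins, 0 of 12 matrix ligands, 0 of 11 heparan sulfate enzymes, 0 of 3 other integrin subunits and 0 of 1 other proteoglycan. An unadjusted p under 0.05 was reached in the blastocyst by 4 activators and 0 genes of the other lists, beside 13.7% of all genes. In the morula it was reached by 1 activator, 2 matrix ligands, 1 enzyme and 0 genes of the other lists, beside 10.7% of all genes. The nearest was Actn4, an actin crosslinker of focal adhesions, with 197 and 173 CPM in NKX1-2 wells against 68.4 and 127 CPM in control wells of the blastocyst (log2 fold change 0.91, SE 0.20, adjusted p = 0.0635).

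Between the stages, the shares of all genes that rose and fell were the 21.9% and 24.0% given above for NKX1-2 wells and 20.1% and 21.6% for control wells. Of the matrix ligands of integrins and syndecans, in NKX1-2 wells 6 of 11 rose and 1 fell, and in control wells 5 of 10 rose and 1 fell, with a median log2 fold change of 1.43 in NKX1-2 and 1.26 in control wells, against -0.02 and -0.01 over all genes. The laminin chains Lamb1 (3.16 in NKX1-2 and 2.52 in control wells) and Lama5 (2.81 and 1.76) rose, and Col4a1, a basement membrane collagen, rose in NKX1-2 wells (2.93). Tgfb1, whose latent form binds alpha V integrins, fell (-4.06 in NKX1-2 and -3.41 in control wells). Lamb1 and Col4a1 had 28 and 29 counts in the morula sums together, and Tgfb1 had 11 in the blastocyst sums together. Such genes may have met the filter on low counts through the other stage alone, which would fix their direction. The counts and medians of the list include them. Among activators and focal adhesion proteins, 8 of 24 rose and 1 fell in NKX1-2 wells and 6 of 24 rose and 1 fell in control wells, a called share under that of all genes (9 of 24 beside 45.9%, and 7 of 24 beside 41.7%). Among the genes that rose were the talin partner vinculin (Vcl, 2.87 and 3.04) and testin (Tes, 1.70 and 1.36). Vcl had 14 morula against 57 blastocyst counts, so it too may have met the filter through the blastocyst alone. Ilk, an integrin-bound pseudokinase, had 451 counts in the blastocyst and 0 in the morula, at least 244-fold higher when the morula sums together are set to a floor of 3 counts. Ilk, counted above among the genes that rose, met the filter on low counts through the blastocyst alone, so that it had to differ. It is also among the 11 genes with 0 morula counts named above, and how it was counted at each stage is uncertain.

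Of the enzymes of heparan sulfate synthesis 2 of 10 fell in NKX1-2 wells and 3 of 9 in control wells, and 0 rose. The called shares lay under the 45.9% and 41.7% of all genes. Those that fell included the sulfotransferase Ndst1 (-1.32 and -1.40) and the xylosyltransferase Xylt2 (-1.36 and -2.32). Gpc4, a glypican and the proteoglycan beside the syndecans that was tested, fell (-2.07 and -2.95). Xylt2 and Gpc4 had 11 and 17 counts in the blastocyst sums together, so they may have met the filter on low counts through the morula alone. The integrin subunit Itgb4, which pairs with alpha 6, had 4.32 and 11.5 CPM in NKX1-2 wells and 9.38 and 8.35 CPM in control wells of the blastocyst, against 41.3 and 48.8 CPM in NKX1-2 wells and 49.1 and 47.6 CPM in control wells of the morula. It fell by 2.20 (SE 0.37) on the log2 scale in NKX1-2 wells and by 2.17 (SE 0.36) in control wells, opposite in direction to Itga6.

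By likeness of log2 CPM over the 8 sums, among 5411 genes with a mean of at least 20 CPM, the genes nearest to Sdc4 were Nfe2l2 (Pearson r = 0.9897) and Lin7c, and 506 genes had an r over 0.9. Those nearest to Itgb5 were Kif22 and Prmt1 with 889 such genes, and those nearest to Spp1 were Mak16 and Psma1 with 737. Sdc1 was nearest to Etaa1 and Bmpr1a, with 96 genes over 0.9, and Itgav to Oxct1 and Impa2, with 92. Itgb1 was nearest to Taf6 and Chmp5, Itga6 to Zc3h14 and Snx10, Tln1 to Slc7a6 and Srrm1, and Itga5, on 9 blastocyst and 7 morula counts, to Mesd and Ywhag. The 8 sums share plates and fall into 2 stages, and genes with a stage difference in 1 direction are alike by this measure.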

How the data were processed

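Transcripts were measured in 4 plates of 96 wells. Deposited were raw counts for each gene in each well, without normalization, and a deposited table gives the morpholino of each barcode. Per the submitters' processing notes, TopHat2, GRCm38 and mm10 were used. The labels name polyA capture with a TruSeq library and 10x Genomics. The counting tool, strand setting and molecular identifiers: not given in the sources used here.

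A run of 344 neighbouring genes is without counts in both morula plates and takes 1.68% and 1.67% of the blastocyst counts. They were left out throughout. Wells with at least 2000 genes were summed per plate and morpholino. filterByExpr removed low genes, and TMM scaled the sums. Morpholino effects were tested in 1 fit over the 8 sums (robust quasi-likelihood, block for the plate), and stages in fits of 4 sums each (edgeR 4.0.16, limma 3.58.1, R 4.3.3), with Benjamini-Hochberg adjustment over all genes tested. Each fit was first tested on simulated data (200 genes given known changes).

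The plate is the block because its sums share it by design. Their deviations correlated at 0.257 in the morula and -0.000704 in the blastocyst. Replicate numbers do not pair the stages.

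Clusters of wells came from leidenalg 0.10.2 within scanpy 1.11.5 (2000 variable genes, 15 components, 15 neighbours, resolution 1.0). A cluster was named from 3 or more markers among its 10 leading genes, and doublets were not called. The remaining steps used pandas 2.3.3, scipy 1.17.1, numpy 2.4.6 and matplotlib 3.10.9 in Python 3.11.15. Gene positions and overlaps are from GENCODE M21.

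The 9 members were named in every comparison, and up to 4 genes of a list with a call. For each member the 2 most alike genes were named. Members, lists and tests were chosen with earlier results of these data known. Alternatives were RLE factors, DESeq2 1.42.0, library totals (chosen after seeing the data), other filters, thinning, only Xist wells that lack Y-linked counts, no block and each plate left out. In a further alternative the 1 well with the most counts of the gene, over the wells of a comparison, was left out. Intervals and floors cover counting error only.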

Additional observations from a re-analysis of the deposited data

Results flagged for a closer look

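Itgav was singled out because it moved in opposite directions at the 2 stages, lower in NKX1-2 than in control wells in both blastocyst plates and higher in both morula plates. The morpholino effect in the blastocyst minus that in the morula was -1.21 on the log2 scale, and the test of this difference did not pass (adjusted p = 0.767, edgeR quasi-likelihood test). The blastocyst values rest on 5 and 11 counts in NKX1-2 wells and 8 and 16 counts in control wells.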

How the results depend on the processing

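Of the member fold changes under alternatives, 630 kept their direction and side of the threshold, 16 lost a call, 7 gained one and 15 turned direction, all of the last without a call in the results reported. With each plate left out, where the lone sum of a stage is assumed to vary like the others, the passing genes ranged from 13 to 838 in the morula, 99 to 635 in the blastocyst, 92 to 1071 on average, 4 to 252 for the difference of effects, 2266 to 3592 for the stages in NKX1-2 wells and 2586 to 4213 in control wells. Passing members ranged from 0 to 1, 0 to 2, 0 to 2, 0 to 1, 6 to 8 and 4 to 7 in the same order.

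The same 6 comparisons gave 15, 21, 60, 1, 2998 and 2513 genes with DESeq2, and 8, 14, 36, 0, 2684 and 1602 in Xist wells that lack Y-linked counts. Here 0 members passed in the morula and on average. Without a low count filter 179, 254, 532 and 27 genes passed for the morpholino, and 1 member, Sdc4, for the difference. The difference gave 1 gene with every well and 1 with thinned wells. Without the replicate block of the plate 34, 43, 185 and 1 genes passed and Sdc4 in the morula had 1.66. Replicate numbers of the stages correlated at -0.00201 in NKX1-2 wells and 0.0251 in control wells and share only a number. With them as a replicate block 4732 genes passed in NKX1-2 wells and 3691 in control wells, where Sdc1 (-1.09) no longer did.

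Without the 1 highest well of the gene, the blastocyst effect turned to -0.033 for Itgb1 and 0.094 for Spp1. The difference of Spp1 turned to 0.23 without that well and was 0.44 in the Xist wells. The well left out was an NKX1-2 well for Itgb1 and a control well for Spp1, so each removal touched 1 side only. With each plate left out, the values that turned ranged in the morula from -0.14 to 0.35 for Itgb5 and -2.81 to 2.64 for Spp1, and in the blastocyst from -0.094 to 0.60 for Itgb5 and -0.26 to 0.067 for Tln1. On average they ranged from -0.0031 to 0.34 for Itgb5 and -1.63 to 1.09 for Spp1, and for the difference from -0.18 to 0.51 for Itgb5, -0.013 to 1.44 for Itga6 and -3.09 to 2.35 for Spp1. The cause was not tested. Few counts limit Itga5, Spp1 in the morula and Itgav in the blastocyst.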

Other observations

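Of 12 genes listed as markers of leukocytes and platelets, the integrin subunits Itgae and Itgb7 carried nearly all counts. Itgb7 had 18.7 and 24.8 CPM in NKX1-2 wells and 15.9 and 17.4 CPM in control wells of the blastocyst, against 66.2 and 69.2 CPM in NKX1-2 wells and 51.0 and 59.1 CPM in control wells of the morula. Itgae had 10.8 to 23.4 CPM in blastocyst sums and 29.1 to 38.0 CPM in morula sums. The stages did not overlap for either gene. Defining leukocyte genes were at or near 0, with 1 count of Ptprc and 0 counts of Itgam in all wells together.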
